A study of Mus musculus with 10 samples.

Results

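The 10 genes described here encode enzymes that make prostaglandins, thromboxane and leukotrienes, together with 1 receptor for the products. They were chosen by name (Pla2g4a, Ptgs1, Ptgs2, Ptges, Hpgds, Tbxas1, Alox5, Alox5ap, Ltc4s and Ptger4) from the 55573 genes in the deposited table of BMDM transcripts. BMDMs are macrophages grown in culture from bone marrow progenitors. Cells from female C57BL/6 mice of WT genotype were cultured with M-CSF and treated for 4 hours, and each of 5 groups had 2 libraries labeled as biological replicates. The vehicle group received no agonist. The polyU group received 5 µg polyU, a uridine ssRNA delivered to endosomes with the lipid DOTAP, where it can bind the RNA sensor TLR7. No group is labeled as given DOTAP alone, so effects of polyU and of its carrier cannot be told apart in any comparison here. The PNPi+dG/rG group received 1 µM ulodesine, an inhibitor of purine nucleoside phosphorylase (PNP), with 5 µM deoxyguanosine (dG) and 5 µM guanosine (rG), which are nucleosides that PNP degrades. The PNPi+dG/rG+polyU group, also called the combination here, received both, and the R848 group received R848 at 1 ng/mL, a synthetic small molecule agonist of TLR7. The ages of the mice and whether the cells of a replicate came from 1 mouse or a pool are not given in the sources used here, so the p-values measure the spread between these libraries.

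Eicosanoids are signaling lipids made from arachidonic acid, which phospholipases cut from membrane lipids. Cyclooxygenases convert arachidonic acid to an unstable intermediate, and a terminal synthase then decides whether prostaglandin E2, prostaglandin D2 or thromboxane is made. In a separate branch, 5-lipoxygenase and its activating protein start leukotriene synthesis. Macrophages are known to use both branches, and the inducible cyclooxygenase is a classic early target of TLR signaling in these cells.

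Values are in CPM, the reads on a gene scaled to a fixed library total, and the libraries held between 14128124 and 38392591 reads on genes, with PNPi+dG/rG the deepest and PNPi+dG/rG+polyU the shallowest. A floor of 3 reads was worth 0.0781 to 0.212 CPM. Fold changes are differences of mean log2 CPM given with their SE from limma, fitted to all 10 libraries, and a gene was called when its Benjamini-Hochberg adjusted p was under 0.05 and its change at least 2-fold. All 10 macrophage markers examined, among them Adgre1, Cd68 and Csf1r, were at 1 CPM or more in every library, and their sum lay between 16000 and 18670 CPM. Fibroblast genes differed between groups, since their summed level was between 0.561 and 1.44 CPM in vehicle, polyU and PNPi+dG/rG, 4.04 and 5.28 CPM in PNPi+dG/rG+polyU, and 139 and 149 CPM in R848. In R848, 6 of the 7 fibroblast genes were at 1 CPM or more in both libraries, including the collagen gene Col1a1 at 51.6 and 58.3 CPM. In PNPi+dG/rG+polyU 1 of the 7 was, namely Pdgfrb at 3.185 and 4.291 CPM, with Col1a1 at 0.354 and 0.141 CPM. In bulk RNA, fewer cells of a type and less RNA per cell cannot be told apart.

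All 10 eicosanoid genes were above 1 CPM in both vehicle libraries, so none depended on a treated group to enter the test, and 11978 genes were tested in all. PolyU alone was followed by higher Ptgs2 and Ptges, the inducible cyclooxygenase and prostaglandin E synthase, and PNPi+dG/rG alone by no called change. Together they gave a 413-fold higher Ptgs2 and a 23.6-fold higher Ptges than vehicle, while Ptgs1 and Alox5, which start the constitutive cyclooxygenase branch and the leukotriene branch, fell. R848 raised Ptgs2, Ptges and Pla2g4a, and the remaining 7 genes fell, beside 8.89% of all genes called higher and 30.3% lower. Of the 7, Alox5ap, Ltc4s and Tbxas1 lay under 2-fold when every library was centered on its median. The comparisons with vehicle share the same 2 vehicle libraries.

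**Figure D1:**
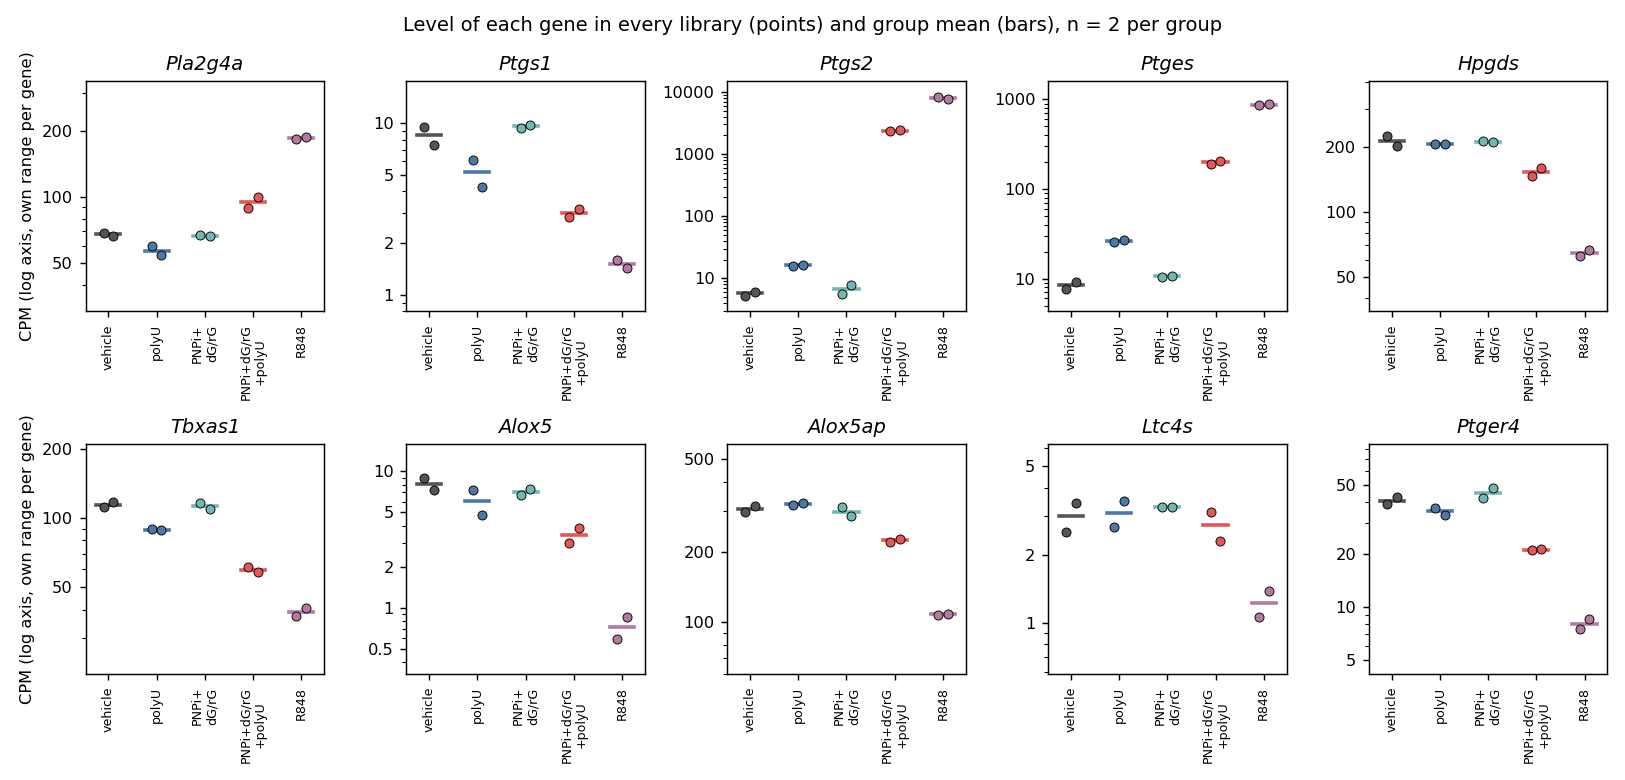
Level of each of the 10 genes in CPM (log axes, with a range of their own for each gene) in every library of the 5 groups; points are libraries and horizontal bars the means of 2. Ptgs2 runs from 5.27 CPM in a vehicle library to 8309 CPM in an R848 library, whereas Alox5 falls from 8.87 to 0.584 CPM.

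By count, polyU raised 2 of the 10 genes and lowered 0, beside 3.21% and 0.776% of all genes tested. The unadjusted limma p of polyU was under 0.05 for 6 of the 10 and for 5612 of the 11978 genes tested. The median log2 fold change was -0.12 for the 10 genes and 0.016 over all genes. PNPi+dG/rG changed 0 of 10, where 0.0668% of all genes rose and 0.00835% fell by limma. The unadjusted p of that comparison was under 0.05 for 1 of the 10 (Ptges) and for 1076 of all genes tested, and voom on the recovered reads also called 0 of the 10. In all 7 comparisons voom gave the same counts of the 10 genes in each direction as limma. PNPi+dG/rG+polyU raised 2 and lowered 2 of 10, beside 8.12% higher and 14.3% lower over all genes, and the medians were -0.46 for the 10 genes and -0.22 for all genes. R848 raised 3 and lowered 7, beside 8.89% and 30.3%, with medians of -1.52 and -0.50.

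The R848 counts depend on scaling. When every library was centered on the median of its tested genes, all log2 fold changes of R848 against vehicle rose by 0.59, and the split became 3 higher and 4 lower among the 10 genes and 1792 higher and 2107 lower among all genes. Alox5ap (-0.90), Ltc4s (-0.69) and Tbxas1 (-0.96) then lay under 2-fold. Centering moved PNPi+dG/rG+polyU against vehicle by 0.21 and left the counts at 2 higher and 2 lower of the 10 genes. Over all genes that split went from 973 higher and 1712 lower to 1192 higher and 1245 lower.

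**Figure D2:**
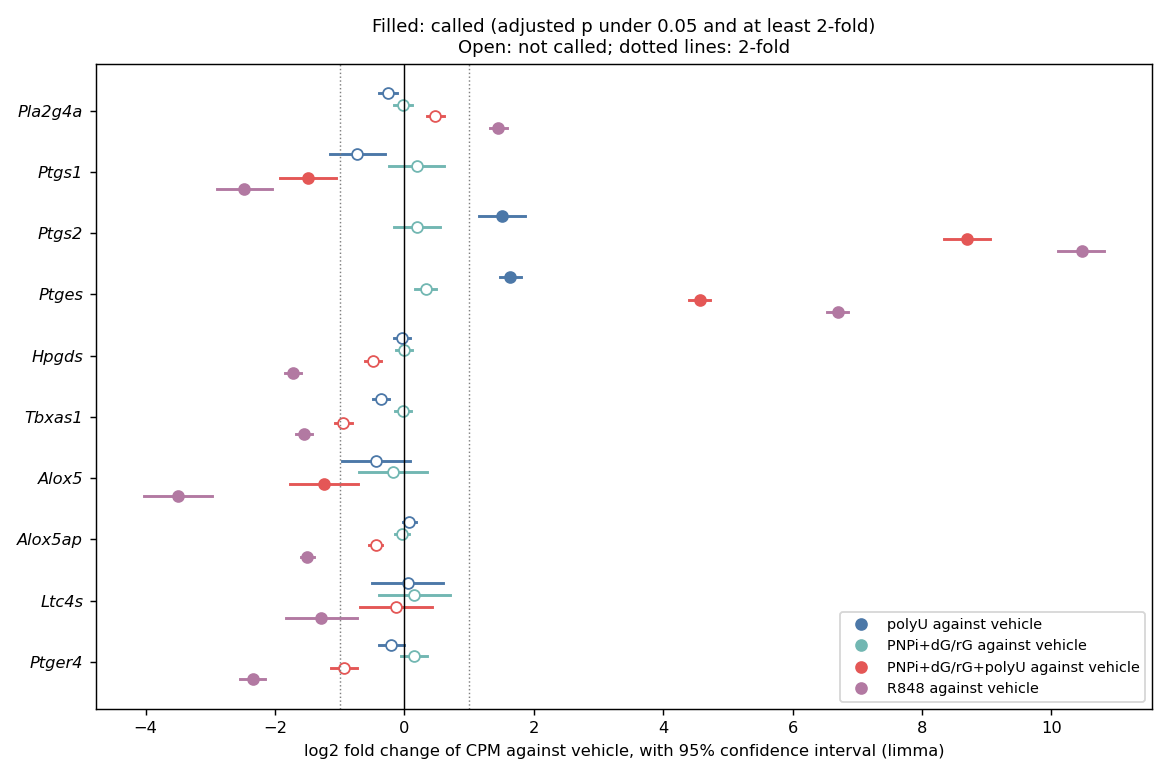
Log2 fold change of CPM against vehicle with its 95% confidence interval for each of the 10 genes and 4 treatments; filled points were called by limma and open points were not. Ptgs2 and Ptges stand at 8.69 and 4.56 with PNPi+dG/rG+polyU and at 10.47 and 6.70 with R848, and every other gene lies between -3.50 and 1.45.

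The sequences just before the transcription start are shown for the 3 genes that rose with R848 and for the 2 that fell with PNPi+dG/rG+polyU, because these genes moved apart under the same treatments. They are the 250 bases upstream of the RefSeq gene start in GRCm38.p6, written 5′ to 3′ on the strand of the gene. Capitals mark matches on either strand to motifs named for NF-κB (GGG and CC with 5 bases of any kind between), CRE (TGACGTCA, and its part TGACG), the E-box (CACGTG), AP-1 (TGANTCA), C/EBP (TTNNGNAA), ETS (GAGGAA) and the TATA box, spelled TATAAA. Of the 10 genes, 9 matched an entry, and Alox5ap did not.
Ptgs2: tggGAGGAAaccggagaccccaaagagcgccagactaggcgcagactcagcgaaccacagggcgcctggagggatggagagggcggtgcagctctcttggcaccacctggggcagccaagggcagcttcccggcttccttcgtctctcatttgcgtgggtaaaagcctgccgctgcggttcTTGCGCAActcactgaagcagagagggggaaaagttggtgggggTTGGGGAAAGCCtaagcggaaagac
Ptges: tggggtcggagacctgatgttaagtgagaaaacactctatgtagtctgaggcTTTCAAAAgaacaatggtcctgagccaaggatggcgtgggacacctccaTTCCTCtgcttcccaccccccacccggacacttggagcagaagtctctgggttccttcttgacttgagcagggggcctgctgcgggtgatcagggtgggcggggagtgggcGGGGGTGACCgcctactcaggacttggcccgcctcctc
Pla2g4a: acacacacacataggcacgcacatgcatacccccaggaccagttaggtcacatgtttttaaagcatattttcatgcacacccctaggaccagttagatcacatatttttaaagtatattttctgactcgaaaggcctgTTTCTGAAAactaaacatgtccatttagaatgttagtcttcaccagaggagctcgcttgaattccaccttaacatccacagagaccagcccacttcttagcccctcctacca
Ptgs1: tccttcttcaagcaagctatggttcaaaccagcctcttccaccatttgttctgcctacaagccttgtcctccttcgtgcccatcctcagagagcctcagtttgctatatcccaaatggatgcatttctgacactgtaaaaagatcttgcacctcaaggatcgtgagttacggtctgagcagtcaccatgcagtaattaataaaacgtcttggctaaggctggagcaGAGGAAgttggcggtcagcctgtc
Alox5: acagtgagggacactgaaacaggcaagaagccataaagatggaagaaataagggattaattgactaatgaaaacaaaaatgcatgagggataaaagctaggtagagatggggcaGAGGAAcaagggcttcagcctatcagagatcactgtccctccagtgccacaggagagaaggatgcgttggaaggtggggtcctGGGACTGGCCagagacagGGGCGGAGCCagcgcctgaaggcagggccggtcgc

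The windows are chr1:150099781-150100030 (+ strand) for Ptgs2, chr2:30903298-30903547 (- strand) for Ptges, chr1:149961291-149961540 (- strand) for Pla2g4a, chr2:36230176-36230425 (+ strand) for Ptgs1 and chr6:116461179-116461428 (- strand) for Alox5. Ptgs2 held an NF-κB match at bases 23 to 14 before the start, overlapping a C/EBP match at bases 25 to 18, and a second C/EBP match at bases 69 to 62. Ptges held an NF-κB match at bases 38 to 29 and a C/EBP match at bases 198 to 191. Both also held an ETS match, and 3.24% of the 32851 RefSeq promoters held all of NF-κB, C/EBP and ETS. This set of motifs was picked from the matches in Ptgs2 and Ptges, so its share is a description and no test. The short motifs are common, since 45.8% of promoters held the NF-κB pattern, 36.8% C/EBP, 23.3% ETS, 17.8% TGACG, 12.4% TATA, 6.75% AP-1, 6.02% the E-box and 1.55% the whole CRE.

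Among the other windows, Alox5 held 2 NF-κB matches, at bases 53 to 44 and 35 to 26, and 1 ETS match. Ptgs1 held 1 ETS match, at bases 24 to 19. Pla2g4a held 2 overlapping C/EBP matches, at bases 112 to 104, in the window shown, and 1 TATA match in the window of its second RefSeq start. Ltc4s held none, Ptger4 held 3 NF-κB matches of which 2 overlap, Hpgds held 2 C/EBP and 1 ETS match, and Tbxas1 held 1 AP-1, 1 ETS and 2 TATA matches. A match describes letters in this window and is no evidence of a bound site. Because RefSeq and GENCODE place some starts differently, the windows of Ptges, Tbxas1 and the second Pla2g4a start lie inside the gene as GENCODE draws it, and those of Hpgds and Ltc4s partly overlap theirs.

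Pla2g4a encodes cytosolic phospholipase A2, which releases arachidonic acid from membranes (GRCm38 chromosome 1, 149829618 to 149961290, - strand). It stood at 69.1 and 67.0 CPM in vehicle, 59.8 and 54.4 in polyU, 67.5 and 66.5 in PNPi+dG/rG, 89.8 and 100.2 in PNPi+dG/rG+polyU, and 184.6 and 188.2 in R848. Both libraries of PNPi+dG/rG+polyU lay above all 6 libraries of the first 3 groups, and both R848 libraries lay above all others. R848 raised Pla2g4a 2.74-fold (log2 1.45 ± 0.06, limma adjusted p = 3.64e-12). With PNPi+dG/rG+polyU the difference from vehicle was 0.48 ± 0.06 on the log2 scale (limma adjusted p = 5.05e-06), and with polyU -0.25 ± 0.06 (adjusted p = 0.00439), both under 2-fold. Between the 2 stimulated groups, PNPi+dG/rG+polyU lay 0.97 ± 0.06 log2 below R848, just under 2-fold. That difference passed 2-fold without replicate 2 of PNPi+dG/rG+polyU (-1.05) and with centered libraries (-1.36).

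Ptgs2 lies next to Pla2g4a in the genome, in the opposite orientation, with 138740 bases between the gene starts (chromosome 1, 150100031 to 150108227, + strand). It encodes cyclooxygenase 2, the inducible enzyme of the prostanoid branch. Its level was 5.27 and 6.12 CPM in vehicle, 15.7 and 16.6 in polyU, 5.55 and 7.67 in PNPi+dG/rG, 2306 and 2393 in PNPi+dG/rG+polyU, and 8309 and 7791 in R848. The polyU libraries did not overlap with vehicle or PNPi+dG/rG, and both stimulated groups lay far above the rest without overlapping each other.

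In limma, Ptgs2 was 2.85-fold above vehicle with polyU (log2 1.51 ± 0.15, adjusted p = 0.00022), 413-fold above with PNPi+dG/rG+polyU (8.69 ± 0.15, adjusted p = 2.49e-09) and 1416-fold above with R848 (10.47 ± 0.15, adjusted p = 4.53e-10). PNPi+dG/rG alone differed from vehicle by 0.20 ± 0.15, with a 95% interval from -0.16 to 0.55 (adjusted p = 0.795). Adding PNPi+dG/rG to polyU raised Ptgs2 145-fold (7.18 ± 0.15, adjusted p = 1.29e-08). The combination remained 3.43-fold below R848 (log2 -1.78 ± 0.15, adjusted p = 2.92e-05). The fibroblast genes summed to 139 and 149 CPM in R848, and their part in the R848 level of Ptgs2 was not tested.

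Ptgs1 encodes cyclooxygenase 1, which many cells make without stimulation (chromosome 2, 36230426 to 36252272, + strand). Its values were 9.54 and 7.42 CPM in vehicle, 6.08 and 4.24 in polyU, 9.40 and 9.76 in PNPi+dG/rG, 2.83 and 3.17 in PNPi+dG/rG+polyU, and 1.59 and 1.44 in R848. Vehicle and PNPi+dG/rG overlapped, and from there the groups ran in the reverse order to Ptgs2. Ptgs1 fell 2.81-fold with PNPi+dG/rG+polyU (log2 -1.49 ± 0.20, limma adjusted p = 7.16e-06) and 5.55-fold with R848 (-2.47 ± 0.20, adjusted p = 1.12e-08). With polyU the value was -0.73 ± 0.20 (limma adjusted p = 0.00897), under 2-fold. The combination lay 0.98 ± 0.20 log2 above R848 (limma adjusted p = 0.00042), just under 2-fold, and at 1.06 without replicate 1 of either group.

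Per kilobase of exon, which allows the enzymes to be compared, Ptgs2 was at 0.469 and 0.700 times Ptgs1 in vehicle and at 0.500 and 0.667 times in PNPi+dG/rG. The ratio was 2.20 and 3.32 in polyU, 691 and 641 in PNPi+dG/rG+polyU, and 4423 and 4591 in R848. The constitutive transcript was thus the more abundant of the pair without polyU or R848, and the inducible one in every library with either. With the length of the principal transcript in place of all exonic bases, the ratio was 0.356 and 0.532 in vehicle and 1.67 and 2.52 in polyU, on the same sides of 1.

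**Figure D3:**
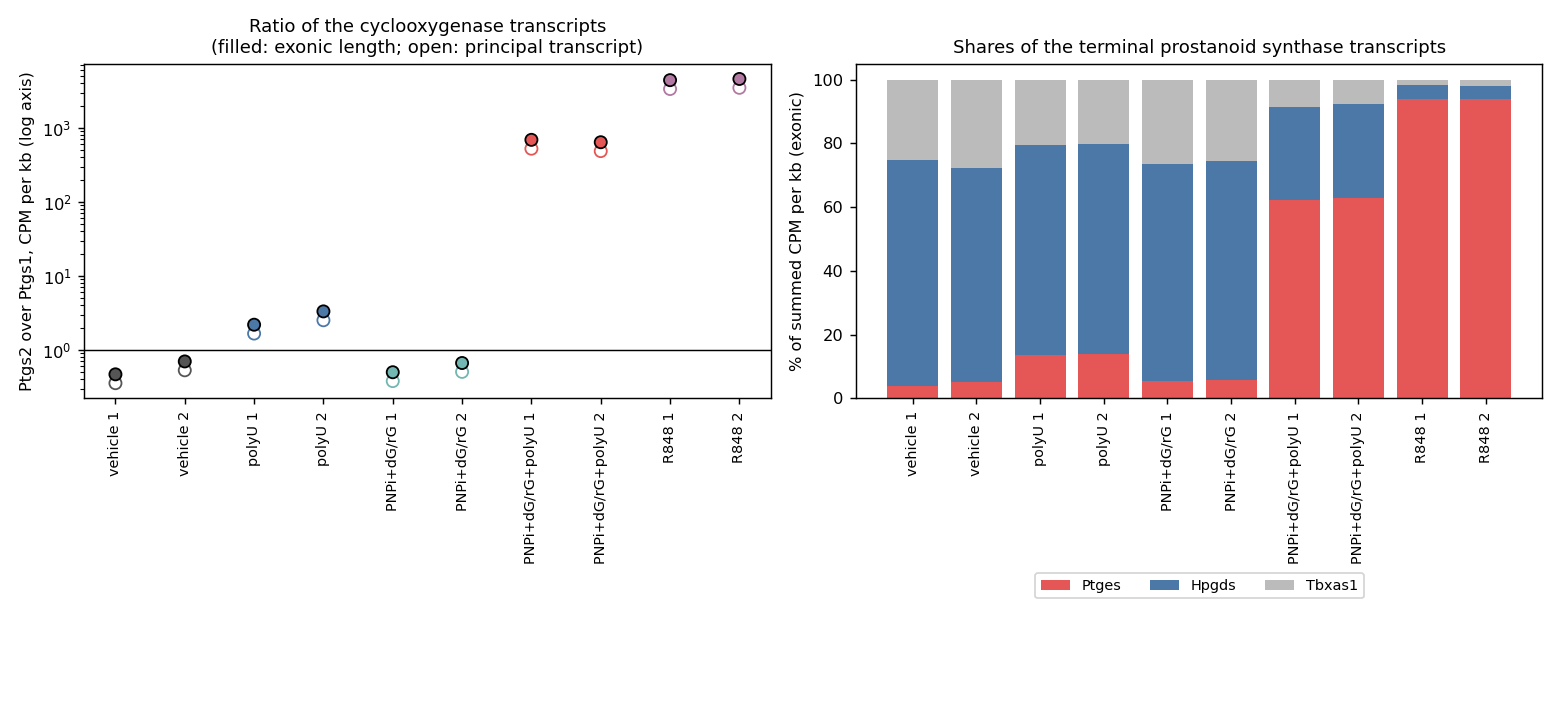
Left, the ratio of Ptgs2 to Ptgs1 in CPM per kb (log axis) in each library, by all exonic bases (filled) and by the principal transcript (open); the line marks equal levels. Right, the share in % that Ptges, Hpgds and Tbxas1 take of their summed CPM per kb in each library, in which Ptges goes from 4.01% and 5.02% in vehicle to 94.0% and 93.9% in R848.

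Ptges encodes the inducible microsomal prostaglandin E synthase, which acts next to cyclooxygenase 2 (chromosome 2, 30889471 to 30929863, - strand). It was at 7.74 and 9.16 CPM in vehicle, 25.7 and 26.6 in polyU, 10.4 and 10.7 in PNPi+dG/rG, 190.3 and 207.9 in PNPi+dG/rG+polyU, and 857.5 and 891.2 in R848. No group overlapped with another. The rise over vehicle was 3.11-fold with polyU (log2 1.64 ± 0.08, limma adjusted p = 2.67e-10), 23.6-fold with PNPi+dG/rG+polyU (4.56 ± 0.08, adjusted p = 1.64e-16) and 104-fold with R848 (6.70 ± 0.08, adjusted p = 1.76e-18). PNPi+dG/rG alone gave 0.33 ± 0.08 (limma adjusted p = 0.064), the only 1 of the 10 genes with an unadjusted p under 0.05 there. Adding PNPi+dG/rG to polyU raised Ptges 7.60-fold (2.93 ± 0.08, limma adjusted p = 5.51e-14), and the combination stayed 4.40-fold below R848 (-2.14 ± 0.08, adjusted p = 2.14e-12). The part of the fibroblast genes in its R848 level was not tested either.

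Hpgds encodes hematopoietic prostaglandin D synthase (chromosome 6, 65117293 to 65144908, - strand). Its levels were 223.5 and 200.6 CPM in vehicle, 206.0 and 205.3 in polyU, 212.0 and 209.6 in PNPi+dG/rG, 145.7 and 158.5 in PNPi+dG/rG+polyU, and 62.2 and 66.4 in R848. PolyU and PNPi+dG/rG lay within the range of the vehicle libraries, and the other groups lay below it. R848 lowered it 3.29-fold (log2 -1.72 ± 0.06, limma adjusted p = 1.68e-13), and the value with PNPi+dG/rG+polyU was -0.48 ± 0.06 (adjusted p = 2.28e-06), under 2-fold. Mast cells also make this enzyme. Of 10 mast cell and basophil markers, 1 or 2 were at 1 CPM or more in each group and 6 or 7 had 0 reads in both libraries, and their sum was 15.04 and 15.56 CPM in vehicle and 4.41 and 5.24 CPM in R848. Most of the vehicle sum was Kit, at 13.8 and 14.2 CPM, whereas Cpa3 was at 0 and 0.169 CPM. The part of these transcripts in the Hpgds values was not tested.

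Tbxas1 encodes thromboxane A synthase (chromosome 6, 38875404 to 39084585, + strand). It was at 112.1 and 117.4 CPM in vehicle, 89.7 and 88.6 in polyU, 116.8 and 109.6 in PNPi+dG/rG, 61.2 and 58.3 in PNPi+dG/rG+polyU, and 37.7 and 40.8 in R848. Vehicle and PNPi+dG/rG overlapped, and polyU, the combination and R848 lay below them, each lower than the one before. R848 lowered Tbxas1 2.93-fold (log2 -1.55 ± 0.06, limma adjusted p = 8.28e-13). The value with PNPi+dG/rG+polyU was -0.94 ± 0.06 (limma adjusted p = 8.44e-10), just under 2-fold, and with polyU -0.36 ± 0.06 (adjusted p = 0.000161). Tbxas1 overlaps Hipk2 on the opposite strand, and the kit kept strand, but whether counting used it is not given in the sources used here, so reads of the pair may be mixed. Megakaryocytes and platelets make this enzyme too, and of 8 markers of theirs 1 (Pf4) was at 1 CPM or more, with a list sum of 28.1 to 32.1 CPM in vehicle and 102 to 108.7 CPM in R848. The part of these transcripts in the Tbxas1 values was not tested.

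Among Ptges, Hpgds and Tbxas1, these values changed which transcript was the most abundant per kilobase of exon. Other prostanoid synthase genes are not in the shares, such as Ptges2, Ptges3 and Fam213b. Their means were 3.11, 12.4 and 13.7 CPM per kb in vehicle and 4.29, 15.35 and 11.49 in R848. Hpgds took 70.9% and 67.2% of the summed CPM per kb of the 3 synthases in vehicle, 66.1% and 65.9% in polyU, 29.1% and 29.4% in PNPi+dG/rG+polyU, and 4.18% and 4.28% in R848. Ptges took 4.01% and 5.02% in vehicle, 13.5% and 14.0% in polyU, 62.2% and 63.0% in PNPi+dG/rG+polyU, and 94.0% and 93.9% in R848. The shares rest on the length used. With the principal transcript, Ptges took 41.8% and 43.2% in PNPi+dG/rG+polyU and 86.5% and 86.1% in R848, and in vehicle Hpgds (52.4% and 48.4%) and Tbxas1 (45.9% and 49.5%) were close. These are shares of RNA, and no lipid was measured.

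In the leukotriene branch, Alox5 encodes 5-lipoxygenase, which oxidizes arachidonic acid in the first step (chromosome 6, 116410077 to 116461178, - strand). It was at 8.87 and 7.25 CPM in vehicle, 7.33 and 4.77 in polyU, 6.72 and 7.43 in PNPi+dG/rG, 2.97 and 3.87 in PNPi+dG/rG+polyU, and 0.584 and 0.857 in R848. The first 3 groups overlapped, and PNPi+dG/rG+polyU and then R848 lay below them. Alox5 fell 2.36-fold with PNPi+dG/rG+polyU (log2 -1.24 ± 0.25, limma adjusted p = 0.000346) and 11.3-fold with R848 (-3.50 ± 0.25, adjusted p = 1.95e-09). The R848 values rest on 11 and 28 reads. The combination lay 4.79-fold above R848 (log2 2.26 ± 0.25, limma adjusted p = 7.82e-07).

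Alox5ap encodes the activating protein that hands arachidonic acid to 5-lipoxygenase (chromosome 5, 149264767 to 149288153, + strand). It was at 296.9 and 314.5 CPM in vehicle, 320.1 and 324.6 in polyU, 312.5 and 285.1 in PNPi+dG/rG, 221.5 and 227.7 in PNPi+dG/rG+polyU, and 107.7 and 108.5 in R848. Vehicle and PNPi+dG/rG overlapped, polyU lay just above both, and the combination and then R848 lay below all of them. R848 lowered it 2.83-fold (log2 -1.498 ± 0.05, limma adjusted p = 1.15e-13), and PNPi+dG/rG+polyU stood at -0.44 ± 0.05 (adjusted p = 7.91e-07), under 2-fold. Per kilobase of exon, Alox5ap made up between 97.6% and 98.5% of the summed CPM per kb of Alox5, Alox5ap and Ltc4s in every library.

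Ltc4s encodes leukotriene C4 synthase, which joins glutathione to the leukotriene backbone (chromosome 11, 50236461 to 50238616, - strand). Its level was 2.53 and 3.43 CPM in vehicle, 2.67 and 3.49 in polyU, 3.28 and 3.26 in PNPi+dG/rG, 3.11 and 2.32 in PNPi+dG/rG+polyU, and 1.06 and 1.38 in R848. All groups overlapped with vehicle apart from R848, which lay below it. It fell 2.43-fold with R848 (log2 -1.28 ± 0.26, limma adjusted p = 0.000274). With PNPi+dG/rG+polyU it differed from vehicle by -0.13 ± 0.26, with a 95% interval from -0.68 to 0.42 (limma adjusted p = 0.67) on 33 to 61 reads per library. With a pseudocount of 1 CPM the R848 value was -0.84, under 2-fold. Both Ltc4s and Alox5ap overlap an antisense gene, and the limit on strand named for Tbxas1 holds for them.

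Ptger4 encodes EP4, a receptor for prostaglandin E2 (chromosome 15, 5206661 to 5244187, - strand). It was at 38.7 and 42.3 CPM in vehicle, 36.7 and 33.7 in polyU, 41.9 and 47.6 in PNPi+dG/rG, 21.1 and 21.4 in PNPi+dG/rG+polyU, and 7.43 and 8.51 in R848. The receptor transcript was lowest in the groups in which Ptgs2 and Ptges were highest, with no overlap between those groups and the rest. R848 lowered Ptger4 5.08-fold (log2 -2.35 ± 0.09, limma adjusted p = 1.40e-12). The combination stood at -0.93 ± 0.09 (limma adjusted p = 2.68e-07), just under 2-fold, and 2.67-fold above R848 (1.42 ± 0.09, adjusted p = 2.27e-09). Ptger4 overlaps Ttc33 on the opposite strand.

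Whether PNPi+dG/rG acted differently with and without polyU was tested as an interaction, the log2 effect of PNPi+dG/rG in the presence of polyU minus its effect in its absence. Of the 10 genes, 2 had a higher and 0 a lower value that was called, beside 4.55% and 8.87% of all genes, and the medians were -0.46 for the 10 genes and -0.27 for all genes. The interaction was 6.98 ± 0.21 for Ptgs2 (limma adjusted p = 2.37e-07) and 2.60 ± 0.11 for Ptges (adjusted p = 3.47e-11). For Pla2g4a it was 0.76 ± 0.09 (limma adjusted p = 4.42e-06), under 2-fold, and 1.04 with centered libraries. For Ptgs1 it was -0.95 ± 0.28 (limma adjusted p = 0.0115) and for Ptger4 -0.87 ± 0.13 (adjusted p = 6.20e-05), both under 2-fold. Ptgs1 passed 2-fold without vehicle replicate 1 (-1.13), polyU replicate 2 (-1.21) or PNPi+dG/rG+polyU replicate 2 (-1.03).

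Against polyU alone, PNPi+dG/rG+polyU raised 2 of the 10 genes, Ptgs2 and Ptges, and lowered 0, beside 5.29% and 10.2% of all genes. The medians were -0.48 for the 10 genes and -0.24 for all genes. The call rested on polyU replicate 2 for Ptgs1 (-0.76, and -1.02 without it) and Alox5 (-0.80, and -1.11 without it), so that 2 genes would have been called lower without that library. Ptgs1 had 6.08 CPM in polyU replicate 1 and 4.24 CPM in replicate 2.

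Against R848, PNPi+dG/rG+polyU was higher for 5 of the 10 genes and lower for 2, beside 16.9% and 3.86% of all genes, with medians of 1.02 and 0.31. The genes higher in PNPi+dG/rG+polyU were Alox5, Ptger4 (log2 1.42), Hpgds (1.24), Ltc4s (1.15) and Alox5ap (1.05), and those lower were Ptgs2 and Ptges. Centering lowered all of these log2 values by 0.38 and gave 2 higher (Alox5 and Ptger4) and 3 lower (Ptgs2, Ptges and Pla2g4a), against 1194 higher and 852 lower over all genes. Ltc4s fell under 2-fold without replicate 1 of PNPi+dG/rG+polyU (0.94) or of R848 (0.96). The only dose of each agonist was measured at 4 hours, so these are differences between these doses.

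Genes outside the pathway with the most similar pattern were found by the root mean square difference of the 4 log2 fold changes against vehicle, among the 8459 genes averaging 10 CPM or more. Nearest to Ptgs2 were Il1b, the gene for interleukin-1β, at a difference of 0.713, Shisa3 at 0.767 and Cxcl2, a neutrophil chemokine, at 0.836. Nearest to Ptges were Pde4b (0.460), a phosphodiesterase, Tarm1 (0.559) and Cdc42ep2 (0.584). Nearest to Ptgs1 were Pkib (0.160), Dot1l (0.162) and Bend4 (0.170), and nearest to Alox5 were Mcm4 (0.0574), Tfdp2 (0.113) and Blm (0.132). Mcm4 and Blm act in DNA replication and repair. This likeness is a description over 4 comparisons that share vehicle libraries.

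A wider list of eicosanoid genes, without the 10, held 75 genes in the table, of which 44 passed the filter on low values. PolyU raised 1 of the 44 (Fpr2) and lowered 0, beside 3.21% and 0.776% of all genes. PNPi+dG/rG changed 0 of the 44, where 0.0668% of all genes rose and 0.00835% fell. The unadjusted limma p of PNPi+dG/rG was under 0.05 for 6 of the 44 and for 1076 of the 11978 genes tested. PNPi+dG/rG+polyU raised 5 and lowered 7 of the 44, beside 8.12% higher and 14.3% lower over all genes, whereas R848 raised 7 and lowered 17, beside 8.89% and 30.3%. These shares of all genes are also the background of the group counts that follow, which are descriptions of small groups. The medians were -0.21 and -0.71, beside -0.22 and -0.50 over all genes. With centered libraries the R848 split turned to 12 higher and 10 lower of the 44, and that of all genes from 1065 higher and 3633 lower to 1792 and 2107.

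**Figure D4:**
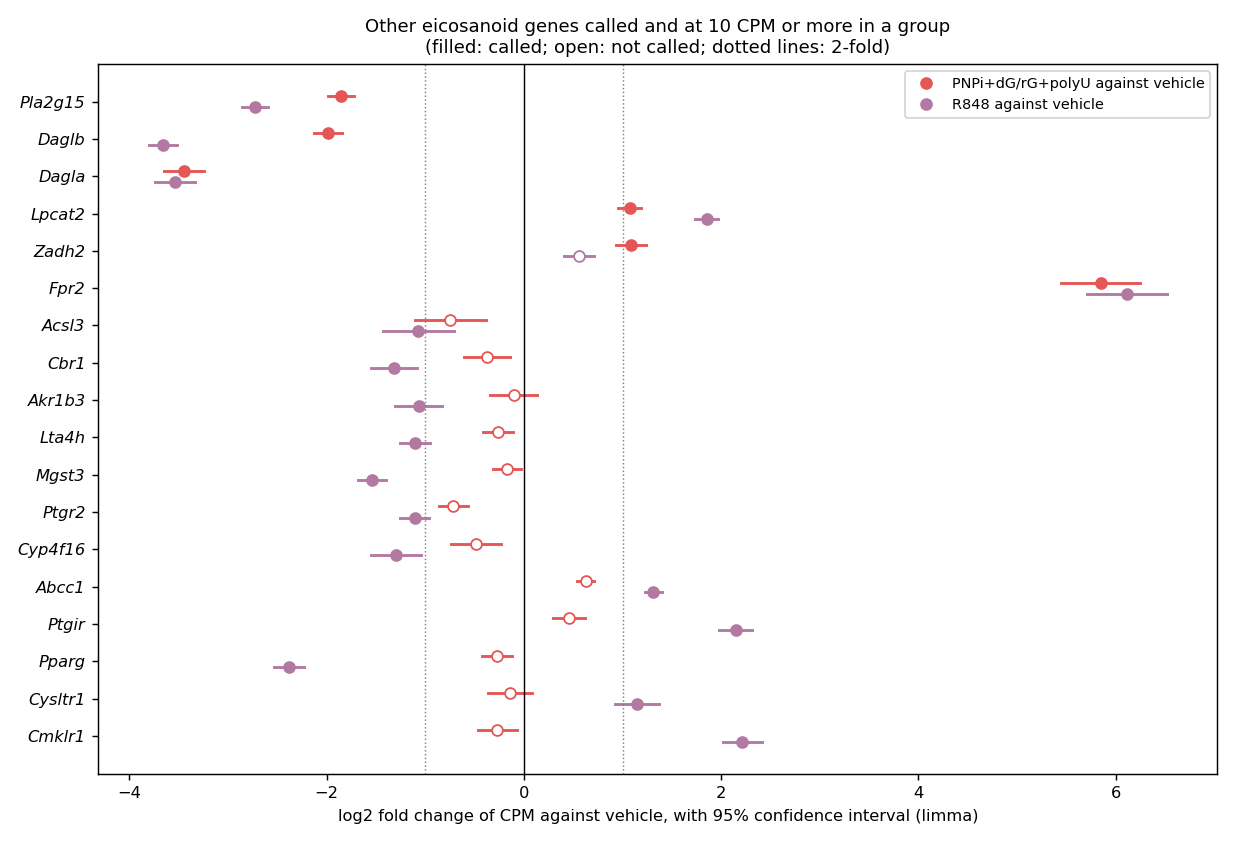
Log2 fold change of CPM against vehicle, with its 95% confidence interval, for the 18 other eicosanoid genes called in PNPi+dG/rG+polyU or R848 and reaching 10 CPM in a group; filled points were called by limma. Fpr2 rises in both, by 5.85 and 6.12, and Dagla falls in both, to -3.45 and -3.54.

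Among 15 genes of arachidonate release and return, R848 raised 1 and lowered 7 (8.89% and 30.3% of all genes), and PNPi+dG/rG+polyU raised 1 and lowered 5 (8.12% and 14.3% of all genes). Lpcat2, which puts acyl chains back on lysophospholipids, rose from 63.2 and 65.9 CPM in vehicle to 135.7 and 136 under the combination (log2 1.07 ± 0.05) and 227.9 and 239.4 under R848 (1.86 ± 0.05). The diacylglycerol lipases, which feed arachidonate-containing endocannabinoids, fell. Dagla went from 57.8 and 56.6 CPM to 4.96 and 5.56 under the combination and 5.15 and 4.72 under R848. Daglb went from 104.7 and 110.3 CPM to 28.4 and 26.0 and to 8.55 and 8.48. Pla2g15, a lysosomal phospholipase, fell by 1.85 ± 0.06 and 2.73 ± 0.06 on the log2 scale. Acsl3, an acyl-CoA ligase, fell with R848 (-1.07 ± 0.17) but was under 2-fold with centered libraries (-0.47), with a pseudocount of 1 (-0.94), and without vehicle replicate 1 (-0.88) or R848 replicate 2 (-0.84). The other two called lower with PNPi+dG/rG+polyU were the secreted phospholipase genes Pla2g5 and Pla2g2e, at 3.20 CPM or less in every library and named after their values were seen.

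Of 5 other prostanoid synthase genes, R848 lowered 2, beside 30.3% of all genes. These were Cbr1 (-1.32 ± 0.11) and Akr1b3 (-1.07 ± 0.11), and with centered libraries both were under 2-fold (-0.73 and -0.47). Akr1b3 was also under 2-fold with a pseudocount of 1 (-0.98) and without vehicle replicate 2 (-0.97) or R848 replicate 1 (-0.98). Of 4 lipoxygenase and leukotriene genes, R848 lowered 2, against the same 30.3%. These were Lta4h, the hydrolase that makes leukotriene B4 (49.4 and 53.8 CPM in vehicle, 23.3 and 24.8 in R848), and Mgst3, which can make leukotriene C4 (46.2 and 45.6 CPM, then 16.1 and 15.6), and both were under 2-fold when centered (-0.51 and -0.94). PNPi+dG/rG+polyU changed 0 of these 9 genes by limma, beside 8.12% higher and 14.3% lower over all genes. The unadjusted limma p was under 0.05 for 2 of the 5, for all 4, and for 8553 of the 11978 genes tested.

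Of 10 genes of degradation and transport, R848 raised 1, Abcc1, the exporter of leukotriene C4, from 293.8 and 310.4 to 744.6 and 753.5 CPM (1.31 ± 0.04). It lowered 3, Hpgd, Ptgr2 and Cyp4f16, and the latter pair were under 2-fold with centered libraries (-0.51 and -0.70). These counts lie near the shares of all genes, 8.89% higher and 30.3% lower. Hpgd, whose product inactivates prostaglandins, was at 3.48 and 4.72 CPM in vehicle, 1.91 and 1.90 with the combination, and 0.319 and 0.184 in R848 on 6 reads each; it was named after its values were seen. Zadh2, a prostaglandin reductase, rose with PNPi+dG/rG+polyU, from 35.9 and 38.7 to 77.7 and 80.3 CPM, and Hpgd fell (-1.09 ± 0.33).

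Of 5 other prostanoid receptors, R848 raised 1, the prostacyclin receptor Ptgir (16.1 and 17.8 CPM to 74.9 and 74.9), and lowered 2, Pparg (56.0 and 55.4 CPM to 10.7 and 10.7) and Ptger1, beside 8.89% and 30.3% of all genes. PNPi+dG/rG+polyU raised Ptger3, from 0.786 and 0.843 to 2.05 and 1.90 CPM, and lowered Ptger2, from 4.71 and 6.86 to 1.84 and 1.97 CPM, beside 8.12% and 14.3% of all genes. Among 5 other receptors of eicosanoids and related ligands, R848 raised 4 (Cysltr1, Fpr2, Cmklr1 and Gpr31b) and lowered 1 (Cysltr2), beside 8.89% and 30.3% of all genes. Fpr2, a receptor for formyl peptides and lipoxin A4, stood at 1.46 and 0.899 CPM in vehicle, 4.26 and 4.77 in polyU, 62.9 and 69.2 in PNPi+dG/rG+polyU, and 77.6 and 81.3 in R848. Cysltr1, a receptor for cysteinyl leukotrienes, went from 27.5 and 22.0 CPM to 55.7 and 53.2 with R848, and to 23.1 and 21.5 with PNPi+dG/rG+polyU, and its R848 value was 0.99, under 2-fold, without vehicle replicate 2. Gpr31b rested on 0 and 2 reads in vehicle, 26 and 29 with the combination, and 10 and 23 in R848. Ptger1 was at 2.02 and 3.20 CPM in vehicle and 0.584 and 1.19 CPM in R848, there on 11 and 39 reads. Ptger1, Ptger2, Ptger3, Cysltr2 and Gpr31b were named after their values were seen, and none of them reached 10 CPM in both libraries of a group.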

How the data were processed

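RNA of 10 BMDM libraries, 2 in each of 5 treatment groups taken from the labels, was sequenced as 50-base single reads from a stranded mRNA kit. Per the study's methods and the submitters' processing notes, reads were demultiplexed with bcl2fastq 2.19.1.403, mapped to GRCm38 with STAR 2.27a and counted per gene with the Ensembl release 97 annotation. The authors deposited 1 table in CPM, with 0.0001 added to every value. The strand setting and the rule for reads over several genes are not given in the sources used here. CPM does not correct for a few strongly induced genes that take reads from all others, so centered libraries were an alternative.

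Depth was read from the step between low values, of which 100% were whole multiples within 0.1 read. Gene symbols and positions came from GENCODE M21 (55394 of 55573 identifiers). The 11978 genes reaching 1 CPM in 2 or more libraries were tested on log2 of the deposited values with limma 3.58.1 in R 4.3.3 (statmod 1.5.0, trended and robust eBayes, all 10 libraries), adjusted by Benjamini-Hochberg within each comparison. The test was run on simulated data beforehand. Levels per kb used all exonic bases or the principal transcript. Ptger4 had no principal transcript length. Motifs and lengths were processed in Python 3.11.15 with pandas 2.3.3.

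The 10 genes, the wider list, the marker lists and the motifs were chosen with earlier results of these data known. Named beyond the 10 were wider-list genes called in PNPi+dG/rG+polyU or R848 with 10 CPM or more in every library of some group, besides the 3 nearest patterns of 4 genes. Alternatives were pseudocounts of 0.1 and 1, other filters, centering, plain eBayes, voom on reads, the compared groups alone, a replicate block and leaving out each library. Marker lists of macrophages, mast cells and basophils, neutrophils, eosinophils, megakaryocytes and platelets, dendritic cells, lymphoid (T, B and NK) cells and fibroblasts were also examined.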

Additional observations from a re-analysis of the deposited data

Results flagged for a closer look

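The effect of PNPi+dG/rG differed between cells with and without polyU for 2 of the 10 genes by the interaction term of limma. For Ptgs2 the difference was 6.98 on the log2 scale, from 0.20 without polyU to 7.18 with it. For Ptges it was 2.60, from 0.33 to 2.93. Both values were higher in the 2 of 2 PNPi+dG/rG+polyU libraries than in every polyU library. Groups of 2 libraries are too small for a test of single outlying libraries.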

How the results depend on the processing

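Each comparison of the 10 genes was refitted under 20 alternatives. Of 1400 refitted gene values, 1362 kept their direction and side of the call, 10 lost and 10 gained a call and 18 changed sign, all of the last among values that had not been called. The count of genes called in PNPi+dG/rG+polyU against polyU ran from 2 to 4 when each library was left out. A pseudocount of 1 left 9 genes called with R848 against vehicle and 6 with PNPi+dG/rG+polyU against R848. The shares of all genes called under these alternatives are not given here.

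With centered libraries, Ltc4s turned to 0.0815 in PNPi+dG/rG+polyU against vehicle and 0.0723 against polyU, and Akr1b3, Mgst3 and Cysltr1 turned to 0.109, 0.0409 and 0.0678 in PNPi+dG/rG+polyU against vehicle. With each library left out in turn, values of PNPi+dG/rG against vehicle ran from -0.0348 to 0.433 for Ptgs2, -0.0446 to 6.25e-05 for Pla2g4a, -0.0998 to 0.0323 for Alox5ap, -0.0670 to 0.374 for Ltc4s, -0.0841 to 0.0720 for Hpgds and -0.0662 to 0.0266 for Tbxas1. In polyU against vehicle they ran from -0.168 to 0.273 for Ltc4s and from -0.120 to 0.0362 for Hpgds. In PNPi+dG/rG+polyU they ran from -0.350 to 0.0906 for Ltc4s and -0.305 to 0.0184 for Cysltr1 against vehicle, and from -0.395 to 0.0294 for Ltc4s against polyU. The causes were not tested.

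For the wider list, of 720 refitted values 701 kept their direction and side of the call. The counts ran from 8 (pseudocount 1) to 13 (no filter) with PNPi+dG/rG+polyU and from 20 (pseudocount 1) to 30 (no filter) with R848. Without the filter more genes of the list than the 44 were tested, so those counts have another denominator. The shares of all genes called under these settings are not given here. The labels do not say whether libraries with the same replicate number were paired. Deviations from the group means of same-numbered libraries correlated between -0.286 and 0.109 over 10 pairs of groups. The lowest were PNPi+dG/rG with vehicle (-0.286) and with polyU (-0.273). With 2 libraries per group these correlations cannot decide whether the numbers pair the libraries. With the replicate number as a block, 2, 0, 4, 10, 2, 7 and 2 of the 10 genes were called in the 7 comparisons and 12 and 24 of the wider list, the same counts as without it. A crossed numbering of PNPi+dG/rG, chosen after seeing the data, gave the same counts. Ltc4s, Ptgs1 and Alox5 rest on fewer than 100 reads in several libraries, and small changes in them were not detectable at this depth.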

Other observations

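Lists of markers of other cells were read in the same libraries. Of 10 neutrophil markers, 2 or 3 were at 1 CPM or more in each group, and their sum was 4.71 to 5.73 CPM in vehicle and 23.0 to 25.2 CPM in R848, most of it S100a8 at 21.03 and 23.39 CPM. Other genes of that list went the other way, as S100a9 was at 1.18 and 1.46 CPM in vehicle and 0.0531 and 0 in R848, and Ngp at 1.12 and 1.01 CPM and then 0 in both. Eosinophil markers summed to 4.72 to 4.88 CPM in vehicle and 8.64 to 9.92 CPM in PNPi+dG/rG+polyU, where 5 of the 7 had 0 reads in both libraries. That difference was Ccr3, at 3.03 and 3.48 and then 7.43 and 8.65 CPM, while Siglecf was at 1.796 and 1.236 and then 1.20 and 1.27 CPM. Dendritic cell markers summed to 0.306 to 1.395 CPM and T, B and NK cell markers to between 0 and 0.449 CPM over all libraries, with none at 1 CPM or more in both libraries of a group. Within the macrophage list, Mertk fell and Cd14 rose in both PNPi+dG/rG+polyU and R848. Mertk went from 40.3 and 40.6 CPM in vehicle to 9.84 and 8.16 in PNPi+dG/rG+polyU and 5.36 and 5.67 in R848, and Cd14 from 466.2 and 482 CPM to 1061 and 1124 and to 2985 and 3136. Hdc, a histamine synthesis enzyme on the mast cell list, rose from 0.168 and 0.393 CPM in vehicle to 4.32 and 4.08 in PNPi+dG/rG+polyU and 3.77 and 4.13 in R848, while Kit on the same list fell to 2.83 and 1.76 and to 0.584 and 0.980 CPM. Their part in the values of the eicosanoid genes was not tested.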
